A study of Mus musculus with 9 samples.

Results

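V6 is a cluster of visceral motor neurons of the adult mouse spinal cord. Its members were the nuclei that the authors' annotation names V6, and their values were read from the same barcodes in the deposited matrix of cholinergic nuclei. There were 582 V6 nuclei, which is 10.4% of the 5613 visceral motor neuron nuclei, 3.63% of the 16042 cholinergic nuclei and a small part of the 34231 annotated nuclei. All 10 visceral clusters, V1 to V10, were made by the authors from gene expression, so differences in expression between V6 and the other 9 are descriptions here and carry no test.

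The study sorted nuclei from mice that carry 1 copy of Chat-IRES-Cre and 1 copy of a Cre-dependent SUN1-sfGFP allele, in which cells that express or have expressed *Chat*, the acetylcholine-synthesizing enzyme, carry a green nuclear membrane. Cords of 12 mice aged 8 weeks were cut into cervical, thoracic and lumbar/sacral tissue and pooled by 4 mice, and single-nucleus RNA sequencing gave 9 libraries, 3 per region. Replicate 1 pooled 2 males and 2 females, replicate 2 pooled 4 males and replicate 3 pooled 4 females. All groups share this genotype and no untreated or reporter-negative group exists, so the groups differ by region and by pool, and a library is the unit of replication.

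Visceral motor neurons are the preganglionic neurons of the autonomic nervous system. Unlike skeletal motor neurons, which contact muscle, they release acetylcholine onto neurons of peripheral ganglia or onto chromaffin cells of the adrenal gland, which in turn act on heart, vessels, glands and gut. The gene given as the marker of V6, *Pcsk2*, encodes the prohormone convertase PC2, which cuts neuropeptide and hormone precursors inside dense-core vesicles. PC2 needs the chaperone 7B2, encoded by *Scg5*, and works beside the convertase PC1/3 (*Pcsk1*), carboxypeptidase E (*Cpe*) and the amidating enzyme of *Pam*.

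A pair of libraries stood apart from their labels in measures other than V6 abundance. The libraries labelled cervical replicate 2 and thoracic replicate 2 each resembled the other region. V5 nuclei numbered 198, 5 and 77 in cervical replicates 1 to 3 and 15, 116 and 1 in thoracic replicates 1 to 3. In the pooled other visceral clusters the level of the Hox gene *Hoxa7* was 1.78, 7.50 and 0.302 CPM (counts per 1000000 of the summed total) in the 3 cervical libraries and 6.44, 2.43 and 9.11 CPM in the 3 thoracic ones. The libraries were left as labelled, and the shares and the gene test that separate cervical from thoracic tissue are given with and without replicate 2. Median totals per V6 nucleus ran from 4809 to 16220.5 corrected counts over the libraries. Of the V6 nuclei, 4 were called doublets by Scrublet, which was run here on the corrected counts of each library. A barcode that also occurs in another library was found for 3 V6 nuclei, out of 130 barcodes found in 2 libraries.

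V6 was a cluster of the rostral cord, a word used here for cervical and thoracic tissue. Of its 582 nuclei, 552 came from cervical and thoracic libraries and 30 from lumbar/sacral ones. V6 made up 15.7%, 12.9% and 11.2% of the visceral nuclei in cervical replicates 1 to 3, and 13.6%, 8.71% and 13.8% in thoracic replicates 1 to 3. In lumbar/sacral replicates 1 to 3 it made up 1.93%, 2.22% and 1.86%. The lumbar/sacral values lay far below the other 6 and did not overlap them, whereas cervical and thoracic values overlapped.

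**Figure D1:**
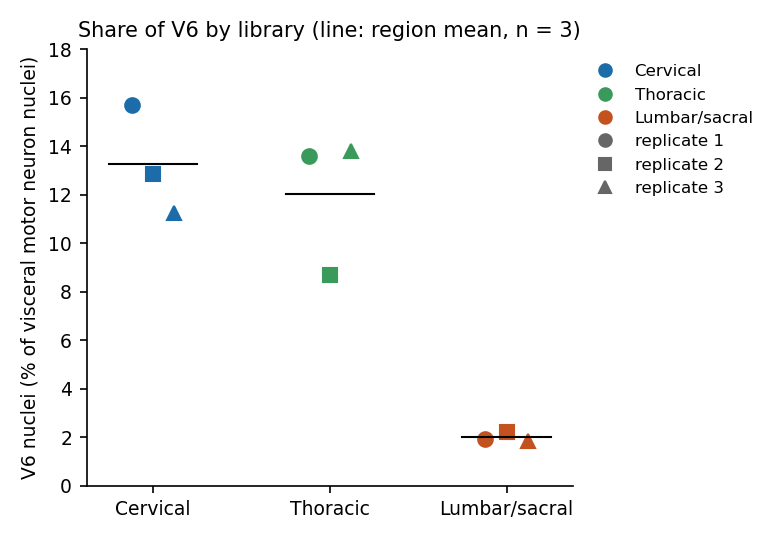
Share of V6 among the visceral motor neuron nuclei of each library, in percent, by region, with 1 point per library and a line for the mean of 3 libraries. The 3 lumbar/sacral libraries lie between 1.86% and 2.22% and the other 6 between 8.71% and 15.7%.

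The mean share (SD, n = 3 each) was 13.3% ± 2.26 for cervical, 12.03% ± 2.88 for thoracic and 2.004% ± 0.193 for lumbar/sacral libraries. Lumbar/sacral tissue was lower than the other 6 libraries by 10.6 percentage points, in 3 of 3 libraries. This gave p = 0.0119 in a two-sided exact permutation test, the smallest p that the 84 groupings allow, and p = 0.0298 after adjustment over the 10 visceral clusters by the method of Benjamini and Hochberg. Restricting the exchange to libraries from the same pool of mice gave an exact permutation p of 0.0370, the smallest of 27 arrangements, and an adjusted p of 0.0926. As a share of all cholinergic nuclei the difference was -5.19 points, with an exact permutation p adjusted to 0.0595. The test over all 3 regions gave an exact permutation p of 0.025 and 0.0625 after adjustment. Without replicate 2 the cervical and thoracic means were 13.5% and 13.7% (n = 2 each), so their order turned, and the exact permutation p over the 3 regions was 0.2. V1, V8 and V9 had the same adjusted p of 0.0298 for lumbar/sacral against the rest, V1 and V9 being lower there and V8, which made up 30.5% of lumbar/sacral visceral nuclei, higher. A share says nothing of the number of cells: fewer V6 cells and more cells of another cluster cannot be told apart.

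No difference in share between the male and the female pool was shown. The male pool was lower by 1.03 points on average (exact permutation p = 1, where 8 exchanges within regions allow no p under 0.25). Male minus female was 1.63 points for cervical, -5.08 points for thoracic and 0.365 points for lumbar/sacral tissue. The male pool is replicate 2, so the first 2 values rest on the libraries that resembled the other region. Averaged over cervical and thoracic tissue, which does not depend on which of them is which, the difference was -1.73 points (10.8% against 12.5%).

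Levels of genes are given as CPM of the corrected counts summed over the V6 nuclei of a library, and differences as differences of log2(CPM + 5), which understates the change of low genes. Library lumbar/sacral replicate 3 held 7 V6 nuclei, under the minimum of 10, so comparisons used the other 8 libraries and its values are shown only as levels. A count of 3 in a V6 sum corresponds to 2.35 to 9.39 CPM in cervical and thoracic libraries and to 44.0 to 78.1 CPM in lumbar/sacral ones, so a level of 0 in the latter says little. These limits cover counting error only.

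The label was checked against marker lists. The 6 visceral markers (*Zeb2*, *Fbn2*, *Nos1*, *Foxp1*, *Prph*, *Isl1*) summed to 1212 to 1419 CPM in the 6 rostral V6 sums. In the same libraries they summed to 1385 to 1748 CPM in the other visceral clusters, 335 to 436 CPM in skeletal motor neurons and 512 to 579 CPM in interneurons. The 9 skeletal markers summed to 798 to 1171 CPM in V6, close to the other visceral clusters (895 to 1118 CPM) and below skeletal motor neurons (2884 to 4425 CPM). By member, mean shares of nuclei with a count were mixed. *Gpr149* (87.9% against 41.7%), *Rbfox3* (74.0% against 45.1%), *Stk32a* (40.7% against 24.8%) and *Sv2b* (37.8% against 27.6%) were found in more V6 than skeletal nuclei. *Tns1* (12.9% against 90.2%), *Esrrg* (52.7% against 99.2%), *Gfra1*, *Nrp2* and *Plekhg1* were found in fewer. V6 thus carried the visceral list as a whole, but not every member of it.

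*Zeb2*, a zinc finger transcription factor, had a corrected count in 89.3% ± 9.70 of V6 nuclei (SD, n = 8 libraries) and in 8.31% ± 12.5 of skeletal nuclei (n = 9). *Nos1*, the neuronal nitric oxide synthase, was found in 91.7% ± 15.7 of V6 nuclei and 50.9% ± 8.08 of other visceral nuclei, and *Prph*, the intermediate filament peripherin, in 71.4% ± 32.1 and 45.1% ± 16.3. *Nos1* was not particular to visceral neurons, with a count in 63.1% ± 5.09 of interneuron nuclei (n = 9). *Isl1*, a LIM homeobox factor of motor neurons, was nearly absent, with a count in 1.48% ± 2.68 of V6 nuclei against 15.6% ± 7.75 of other visceral and 38.2% ± 13.3 of skeletal nuclei. *Fbn2*, which encodes the matrix protein fibrillin-2, was at 54.05 to 118 CPM in rostral V6 sums against 347 to 656 CPM in the other visceral clusters of the same libraries. It did not overlap the pooled clusters there, but rostral V9 was as low (64.7 to 146 CPM) and V10 stood between (mean 202 CPM), so low *Fbn2* was shared with V9.

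Markers of cholinergic interneurons (*Tox*, *Pax2* and *Mpped2*) summed to 186 to 531 CPM in rostral V6 sums, above the other visceral clusters (32.5 to 95.6 CPM) and overlapping interneurons (428 to 593 CPM). Most of that sum was *Tox* (185 to 519 CPM). *Pax2* and *Mpped2* had a count in 1.04% and 3.27% of V6 nuclei, against 69.7% and 71.7% of interneuron nuclei. Among markers of other neurons, 6 of 7 were in the matrix and summed to 9.33 to 31.3 CPM in rostral V6 sums (282 to 373 CPM in interneurons). Oligodendrocyte lineage markers summed to 66.3 to 95.6 CPM, astrocyte markers to 6.998 to 25.04 CPM, microglia markers to 25.1 to 86.5 CPM and vascular markers to 0.845 to 7.28 CPM. *Aqp4*, *Gja1*, *Csf1r*, *C1qb*, *Rgs5* and *Slc17a8* were at 0 in all 6 rostral V6 sums.

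*Pcsk2* lies on chromosome 2 of GRCm38 from 143546156 to 143816285, on the plus strand. Its level in V6 was 364, 482 and 334 CPM in cervical replicates 1 to 3, 367, 369 and 320.3 CPM in thoracic replicates 1 to 3 and 129.6, 220.1 and 130.1 CPM in lumbar/sacral replicates 1 to 3. In the pooled other visceral clusters it was 74.6, 79.9 and 77.5 CPM in cervical sums, 45.9, 75.4 and 38.1 CPM in thoracic sums and 51.4, 61.7 and 50.7 CPM in lumbar/sacral libraries. Every V6 sum exceeded every sum of the other visceral clusters, and within V6 the lumbar/sacral libraries were the lowest. On average V6 stood at 323 ± 106 CPM and the others at 63.1 ± 16.2 CPM, a within-library log2 difference of 2.22 ± 0.56 (SD, n = 8), from 1.26 in lumbar/sacral replicate 1 to 2.92 in thoracic replicate 3.

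V6 had the highest mean *Pcsk2* level of the 10 visceral clusters. V10 followed with 135 ± 73.9 CPM (n = 7 libraries) and V3 with 105 ± 37.5 CPM (n = 9), and the remaining 7 clusters lay between 36.6 CPM in V2 and 77.0 CPM in V8. The ranges over libraries overlapped between V6 (129.6 to 482 CPM) and V10 (60.3 to 280.2 CPM), V3 (61.4 to 177 CPM) and, in 1 library of V9 (at most 133 CPM), V9, and all neighbours below V6 overlapped each other. These overlaps with V6 set its lumbar/sacral sums against rostral sums of the other clusters. Within rostral libraries V6 (320.3 to 482 CPM) lay above V10, V3 and V9. Within lumbar/sacral libraries of at least 10 nuclei V6 (129.6 and 220.1 CPM) lay above V10 (91.2 CPM), V3 (at most 78.0 CPM) and V8 (at most 90.4 CPM). A within-library difference from V6 could be taken over the libraries that held both clusters: it was 1.501 ± 0.65 for V10 (n = 6) and 1.52 ± 0.31 for V3 (n = 8) and larger for every other cluster except V8, for which it was 0.92 ± 0.45 in 2 lumbar/sacral libraries.

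**Figure D2:**
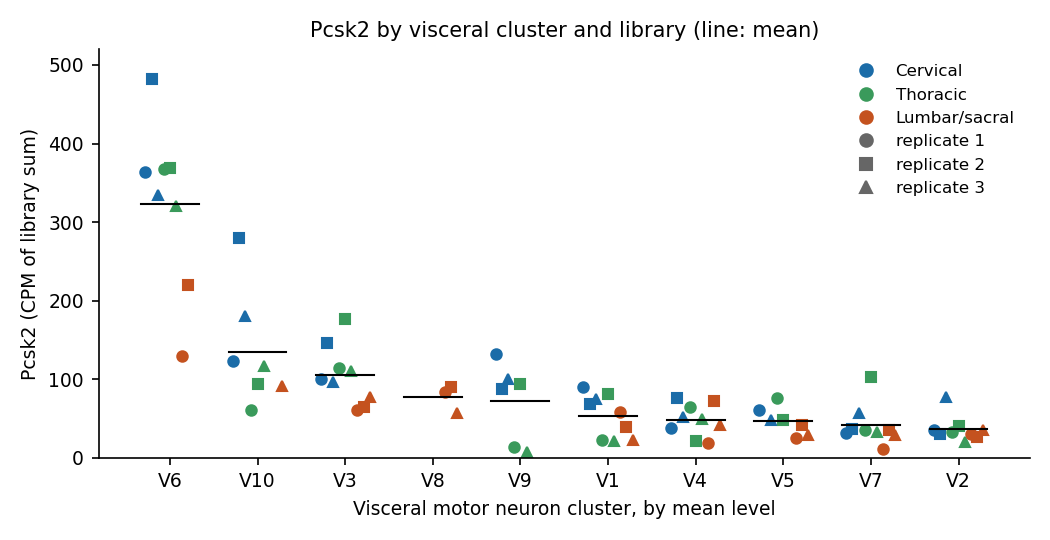
*Pcsk2* level in CPM in each visceral cluster, with 1 point per library of at least 10 nuclei of the cluster and a bar for the mean. V6 has the highest mean (323 CPM), V10 and V3 come next (135 and 105 CPM), and the range of V6 overlaps those of V10, V3 and V9.

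Outside the visceral class *Pcsk2* was not low. A count of it was found in 72.1% ± 12.97 of V6 nuclei (n = 8), 29.9% ± 10.0 of other visceral nuclei, 51.0% ± 15.4 of skeletal nuclei and 62.9% ± 9.79 of interneuron nuclei (n = 9). With every nucleus thinned to 4600 corrected counts the shares were 62.4% ± 6.29, 20.4% ± 3.98, 38.8% ± 8.88 and 50.9% ± 5.59. The order was the same, and 3 lumbar/sacral V6 nuclei were too shallow to be thinned. No cell type that should lack *Pcsk2* was available as a background.

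The genes whose mean log2(CPM + 5) over the 10 visceral clusters was most like that of *Pcsk2*, among genes of at least 100 CPM in V6, were *Kdm5c* (Pearson r = 0.909), *Hoxc4* (0.872), *Pip5k1b* (0.839), *Ube2g1* (0.831) and *Ccnl2* (0.823). These correlations rest on 10 clusters of the same libraries, and V6 is the highest point in all 5. *Hoxc4*, a Hox gene of the rostral body axis, was higher in V6 than in the other visceral clusters in 8 of 8 libraries, by 0.76 ± 0.18 on the log2 scale, with means of 117 and 67.3 CPM. *Pip5k1b*, a lipid kinase gene, stood at 582 ± 320.1 CPM in V6 and 161 ± 44.6 CPM in the others.

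The rest of the prohormone processing machinery did not share the pattern of *Pcsk2*. In the description of V6 against the other visceral clusters a gene passed if it differed by at least 1 on the log2 scale in the same direction in all 8 libraries, and of 10720 genes that reached 10 CPM in at least 3 sums, 0.0746% (8) passed higher and 0.606% (65) passed lower, 0.681% (73) in all. Of the 13 processing genes 1 passed, *Pcsk2*, and the list had a median difference of -0.12 against -0.06 over all 10720 genes. *Scg5* differed by 0.02 ± 0.36 and *Pcsk1n*, which encodes the PC1/3 inhibitor proSAAS, by -0.07 ± 0.26. *Pcsk1* was higher on average by 0.38 ± 0.93, in 7 of 8 libraries. The exception was lumbar/sacral replicate 2 (-1.66, at 14.7 CPM in V6, below the level of 3 counts there), and the 6 rostral libraries gave 0.77 ± 0.40. *Pam* was lower in the 6 rostral libraries by 1.90 ± 0.33 on average, with 98.3 to 237 CPM in V6 and 466 to 763 CPM in the others, and in lumbar/sacral replicates 1 to 3 V6 stood at 664, 191 and 208 CPM against 612, 411 and 463 CPM, so that replicate 1 was the exception.

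Neuropeptide precursors are the substrates of these enzymes. Of 41 listed precursors and secreted peptide-like ligands 38 were in the matrix and 6 reached the minimum, and none of the 6 passed. The median of their average differences was -1.16. A gene can reach the minimum through the other clusters alone, and 1 of the 6, *Nxph1*, is no neuropeptide. This median therefore does not show that precursors as a set were lower in V6. *Cartpt*, the CART peptide precursor, was at 2.37 to 15.7 CPM in rostral V6 sums and at 1.51 to 89.1 CPM in the others, so the ranges overlapped there. In lumbar/sacral replicates 1 to 3 it was at 0, 14.7 and 52.05 CPM in V6 and 104, 119 and 101 CPM in the others. *Penk* (proenkephalin) and *Sst* (somatostatin) were low in both groups in the rostral cord, at most 18.8 and 6.26 CPM in V6. In lumbar/sacral tissue the other visceral clusters held 135, 211 and 121 CPM of *Penk* and 130.4, 103 and 173 CPM of *Sst*, against 0, 29.3 and 0 and 32.4, 0 and 26.02 CPM in V6, values that all lie below the level of 3 counts there. *Nts*, the neurotensin precursor, differed by -1.14 ± 0.72 and *Adcyap1*, the PACAP precursor, by -0.07 ± 0.90, with 0.41 ± 0.22 in the 6 rostral libraries. *Nxph1*, a neurexin ligand and no neuropeptide, was lower in 8 of 8 libraries, by 2.47 ± 0.78 on average, but missed the limit in 1 of them. Granins and other dense-core vesicle proteins did not move together either: 0 of 10 passed, with a median of -0.18.

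Only 8 genes passed as higher in V6. *Tox*, an HMG-box transcription factor gene on chromosome 4 (6686353 to 6991557, minus strand), was at 519, 239 and 512 CPM in cervical sums, 295, 294 and 185 CPM in thoracic sums and 308, 249 and 364 CPM in lumbar/sacral V6 sums. The other visceral clusters held 69.1, 34.9 and 78.1 CPM in cervical sums, 41.4, 42.9 and 25.98 CPM in thoracic sums and 28.3, 17.01 and 20.8 CPM in lumbar/sacral libraries. The groups did not overlap, and the within-library difference was 2.85 ± 0.34. In V10 and V9 *Tox* reached means of 182 and 154 CPM with wide spread (up to 405 and 377 CPM), so these clusters overlapped V6.

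*Kirrel3*, a synaptic adhesion molecule of the immunoglobulin superfamily on chromosome 9 (34485894 to 35036716, plus strand), was at 1641, 1628 and 1644 CPM in cervical sums, 1915, 998 and 1401 CPM in thoracic sums and 2852, 2449.9 and 3123 CPM in lumbar/sacral V6 sums. In the pooled other visceral clusters no library exceeded 436 CPM, and the difference was 2.73 ± 0.60. Taken alone, V3 reached 1066 CPM in rostral and 1132 CPM in lumbar/sacral libraries, so its range overlapped that of V6 (lowest 998 CPM). *Ptprt*, a receptor protein tyrosine phosphatase on chromosome 2 (161521990 to 162661147, minus strand), differed by 2.30 ± 0.67, with 1305 ± 470.4 CPM in V6 and 279 ± 161 CPM in the others, and again V3 overlapped V6 (635 to 1496 CPM in rostral V3, 995 to 2018 CPM in rostral V6). *Kirrel3* had a count in 97.8% ± 3.70 and *Ptprt* in 96.1% ± 4.29 of V6 nuclei. They were not particular to visceral neurons, since *Kirrel3* was found in 87.7% ± 9.02 of skeletal and *Ptprt* in 91.7% ± 4.37 of interneuron nuclei.

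The other 4 were *Adamtsl1* (2.01 ± 0.20), a secreted ADAMTS-like matrix protein, *Hmcn1* (1.91 ± 0.97), the matrix protein hemicentin, *Itgb5* (1.70 ± 0.84), an integrin beta subunit, and *Grm5* (1.29 ± 0.14), a metabotropic glutamate receptor. V6 had the highest mean of the 10 clusters for *Tox*, *Kirrel3*, *Ptprt*, *Itgb5* and *Grm5*, but *Adamtsl1* was higher in V10 (3179 against 2474 CPM) and *Hmcn1* was higher in V9 and V10 (737 and 655 against 653 CPM). These means cover unlike libraries: V6 includes 2 lumbar/sacral sums, V10 includes 1 and V9 is rostral only. In the rostral V6 nuclei pooled, *Hmcn1* was at 474 CPM and *Adamtsl1* at 2856 CPM. *Grm5* in V4 had a mean of 2320 CPM (n = 9) beside 2499 ± 784 CPM in V6. *Itgb5* was low in the visceral clusters, with 11.8 to 21.1 CPM in rostral V6 sums and at most 3.65 CPM in the others. Its differences in lumbar/sacral replicates 1 and 2, 3.69 and 1.36, rest on 13 and 10 V6 nuclei. It had a count in 15.7% ± 9.50 of V6 nuclei (n = 8) and 26.5% ± 6.63 of skeletal nuclei (n = 9).

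**Figure D3:**
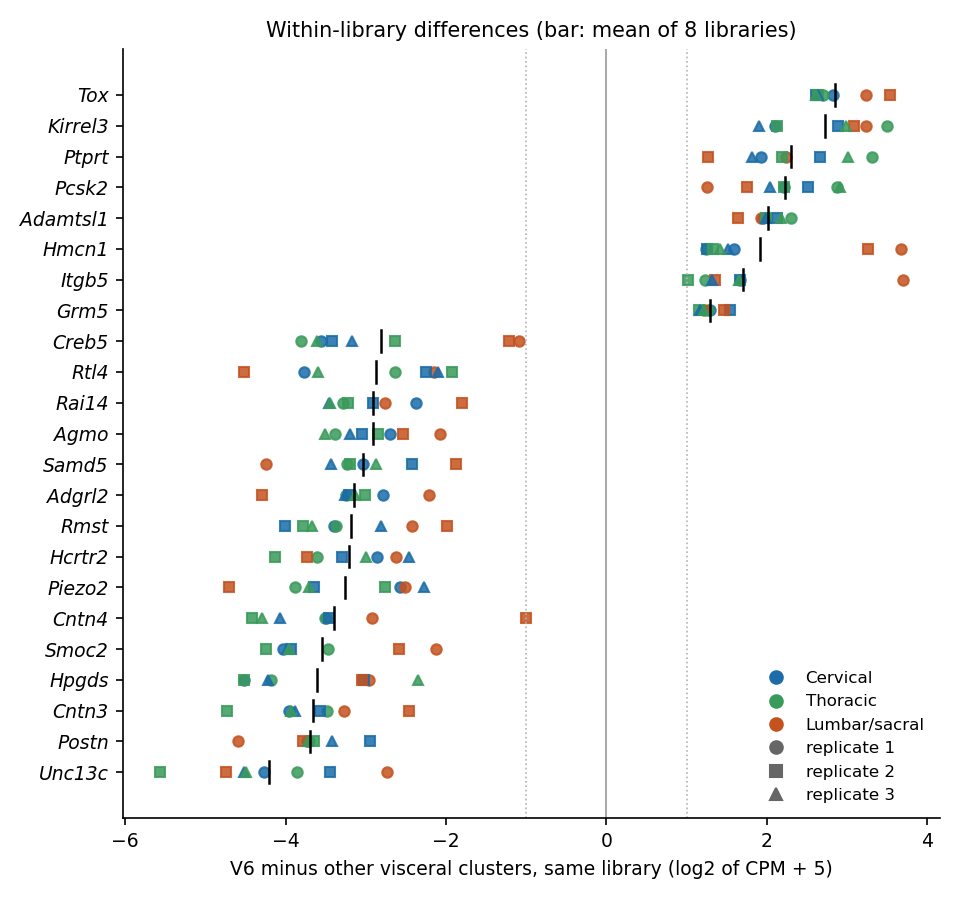
Within-library difference of log2(CPM + 5), V6 minus the pooled other visceral clusters, for 23 genes that passed in all 8 libraries, with 1 point per library coloured by region. The 8 higher genes lie to the right of 1 and the 15 lower genes to the left of -1 in every library.

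More genes were lower in V6 than higher. Among genes that passed, leaving out unnamed gene models, the largest average differences were those of *Unc13c*, a synaptic vesicle priming factor, and *Postn*, the matricellular protein periostin. *Unc13c* was at 23.6, 9.33 and 18.9 CPM in cervical sums, 4.70, 3.13 and 0.91 CPM in thoracic sums and 16.2 and 0 CPM in the first 2 lumbar/sacral V6 sums. The other visceral clusters held 128 to 548 CPM in the same libraries, without overlap (-4.20 ± 0.86). The 7 nuclei of lumbar/sacral replicate 3 stood at 573 CPM, above the other clusters there (218 CPM). *Postn* was at most 7.11 CPM in the 8 V6 sums and between 51.5 and 125 CPM in the others (-3.69 ± 0.45). The 7 nuclei of lumbar/sacral replicate 3 stood at 104 CPM for *Postn*, near the level of 3 counts there.

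The lower genes included adhesion molecules (*Cntn3*, -3.66 ± 0.65, and *Cntn4*, -3.40 ± 1.09, contactins of the immunoglobulin superfamily) and the matricellular gene *Smoc2* (-3.54 ± 0.77). They also included the mechanically gated channel *Piezo2* (-3.26 ± 0.85), the orexin receptor *Hcrtr2* (-3.22 ± 0.58), the latrophilin *Adgrl2* (-3.14 ± 0.58) and the prostaglandin D synthase *Hpgds* (-3.60 ± 0.85). *Hcrtr2* was at 0 to 26.1 CPM in the 8 V6 sums and 61.7 to 166 CPM in the others. Transcription factors were among them: *Creb5* (-2.81 ± 1.09), *Ebf1* (-2.72 ± 0.67) and *Foxp1* (-1.39 ± 0.30), a factor of motor column identity. *Ebf1* was at 46.95 to 99.7 CPM in rostral V6 sums and 628 ± 80.3 CPM on average in the others, without overlap. *Rmst* (-3.18 ± 0.71), a long noncoding RNA, *Samd5* (-3.04 ± 0.70), *Agmo* (-2.91 ± 0.47), *Rai14* (-2.91 ± 0.58) and *Rtl4* (-2.87 ± 0.97) complete the 15 named by size.

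Of all 10720 genes 0.0746% passed higher and 0.606% lower, 6411 were lower on average and the median was -0.06. By gene list, 0 of 4 measured members of cholinergic transmission passed, and 2 were higher and 2 lower on average. *Chat* was at 248 ± 43.6 CPM in V6 and 207 ± 27.4 CPM in the others, and the choline transporter *Slc5a7* at 379 ± 81.4 and 356 ± 82.4 CPM. Both genes are close to the basis of the sort. The difference of *Prima1* was -0.84 on average, from -2.36 in lumbar/sacral replicate 1 to 0.27 in lumbar/sacral replicate 2. Of 22 glutamate receptor subunits 1 passed higher (*Grm5*) and 1 lower (the kainate receptor subunit *Grik1*, -2.74 ± 0.73), with a median of -0.34. Of 18 GABA and glycine receptor subunits none passed (median -0.71), though *Glra2* was lower in 8 of 8 libraries (-2.51 ± 0.94). Of 13 peptide receptors 3 passed lower, and 12 were lower on average (median -0.73).

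Among 34 potassium channels none passed (median -0.26), and in a list of 25 other cation channels (sodium, calcium, HCN, Piezo and TRP channels) 3 passed lower, including *Piezo2* and the TRP channel *Trpc5* (-2.60 ± 0.85). Of 21 cadherins and protocadherins 3 passed lower, 17 were lower on average, and the median was -1.23, the lowest of the lists with over 10 measured members. Of 21 extracellular matrix genes *Adamtsl1* passed higher and 2 passed lower (*Postn* and *Fras1*, -2.46), with 18 lower on average and a median of -0.75. Beside these stand 0.606% passing lower, 6411 lower on average and a median of -0.06 over all 10720 genes. A gene can reach the minimum through the other clusters alone. The medians of the lists in this and the preceding paragraph therefore do not show that a list as a set was lower in V6. Of 33 guidance genes 1 passed lower (median -0.35) and of 36 transcription factors 5 passed lower (median -0.50). Of the 14 measured markers that the study names for visceral groups, a list chosen on these libraries, *Pcsk2* passed higher and 4 passed lower (*Postn*, *Piezo2*, *Fras1* and *Fam19a1*, -1.95 ± 0.56). No nitric oxide, serotonin receptor, acetylcholine receptor, Hox or immediate early gene passed. Of 3 adrenergic receptors 1 passed lower.

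The count depended on the 2 lumbar/sacral libraries. In the 6 cervical and thoracic libraries alone, of the 10720 genes 0.476% (51) passed higher and 1.77% (190) passed lower. Then *Nos1* (1.21 ± 0.25) and *Htr2c*, a serotonin receptor (1.41 ± 0.35), were higher on average, and *Htr2c* passed. *Htr2c* was at 1562 to 2594 CPM in rostral V6 sums and 533 to 1181 CPM in the others, without overlap. *Fbn2* (-2.62 ± 0.44) and *Erbb4* (-2.70 ± 0.61) passed lower. Leaving out replicate 2 in all regions raised the count of passing genes from 73 to 116.

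Over genes, the mean expression of V6 was most like that of V4 (Pearson r = 0.948 over 11003 genes), V2 (0.947), V3 (0.941) and V9 (0.940), and least like V10 (0.912) and V8 (0.822, from 2 lumbar/sacral libraries). Genes are not independent replicates and r is a description. The values of r also cover unlike libraries: 8 for V4, V2 and V3, with 2 lumbar/sacral among them, and 6 rostral ones for V9 and V10. Their order is therefore no ranking over equal libraries. Counts of passing genes depend on the number of libraries that must agree, so they were compared over the 6 rostral libraries, which all of V1, V2, V3, V4, V7, V9 and V10 have. Fewest genes passed there against V9 (61 higher and 93 lower in V6), then V10 (70 and 135), V4 (76 and 138), V2 (80 and 148) and V3 (62 and 174). Against V4 the leading higher genes were *Hmcn1*, *Tox* and *Kirrel3*, and *Unc13c* and *Piezo2* led the lower ones.

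The few V6 nuclei of the lumbar/sacral cord differed in expression from the V6 nuclei of the rostral cord. For this comparison sums were weighted by their depth, and 3700 genes with a mean over regions of at least 50 CPM were fitted with limma on log2(CPM + 20). Of these, 3.76% (139) were called at an adjusted p under 0.05, 2.05% (76) higher and 1.7% (63) lower in lumbar/sacral V6, and 563 had an unadjusted p under 0.05 in limma. The median difference over all 3700 genes was -0.05. The lumbar/sacral side rests on 2 sums of 13 and 10 nuclei. Without replicate 1, which leaves 1 lumbar/sacral sum that is assumed to vary like the others, 7 genes were called. The count was 288 without replicate 2 and 49 without replicate 3.

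*Erbb4*, a receptor for neuregulins, was at 19.4, 6.998 and 26.1 CPM in cervical sums, 7.83, 3.13 and 6.37 CPM in thoracic sums and 5589.8, 1819 and 2707 CPM in lumbar/sacral V6 sums, the last of 7 nuclei and outside the fit. It was absent or nearly so in the rostral sums and among the abundant genes in the caudal ones, a log2 difference of 6.70 (standard error 0.36, limma adjusted p = 1.9e-05). *Zfhx3*, a homeobox and zinc finger transcription factor, was at 6.26 to 26.2 CPM in rostral and 745, 499 and 573 CPM in lumbar/sacral V6 (4.12, standard error 0.26). For neither gene did the regions overlap.

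Others that rose included the sodium channel-binding *Fgf13* (4.16), the ephrin receptor *Epha5* (2.97), the engulfment adaptor *Gulp1* (3.89), the glycosyltransferase *Mgat4c* (4.99), the alpha adrenergic receptor *Adra1a* (4.30) and *Fbn2* (3.61), which so reached 1717, 734 and 833 CPM. The relaxin receptor *Rxfp1* was at 0 in 5 of 6 rostral V6 sums and at 1.82 CPM in the sixth, against 567, 308 and 364 CPM in lumbar/sacral sums. The same genes were higher in the lumbar/sacral cord in the other visceral clusters too, by 3.84 for *Erbb4*, 3.58 for *Zfhx3*, 3.61 for *Adra1a*, 1.12 for *Fbn2* and 1.01 for *Fgf13* on the log2(CPM + 5) scale.

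Among genes that fell, *Plcl1*, a phospholipase C-like inositol phosphate-binding protein, was at 1317, 839.8 and 1326 CPM in cervical sums, 1366, 886 and 839 CPM in thoracic sums and 16.2, 58.7 and 104 CPM in lumbar/sacral V6 (-4.34, standard error 0.35, limma adjusted p = 0.00017). *Tmem132d*, a membrane protein, was at 428 to 1523 and 64.8, 58.7 and 78.1 CPM (-3.43, standard error 0.44). Again the regions did not overlap. *Pld5* (-2.92), *Thsd4* (-2.39), *Ubash3b* (-2.14), *Pip5k1b* (-2.13), *Plcb4* (-2.74, a phospholipase C) and *Tnr* (-2.57, the matrix protein tenascin-R) fell as well. *Arpp21* and *Prkar2a*, which encode a cAMP-regulated phosphoprotein and a regulatory subunit of protein kinase A, were listed at 0 and 103 and at 0 and 0 CPM in lumbar/sacral replicates 1 and 2. Their rostral ranges were 544 to 1222 and 71.99 to 113 CPM, and for *Prkar2a* the caudal level of 3 counts is 44.0 to 48.6 CPM.

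**Figure D4:**
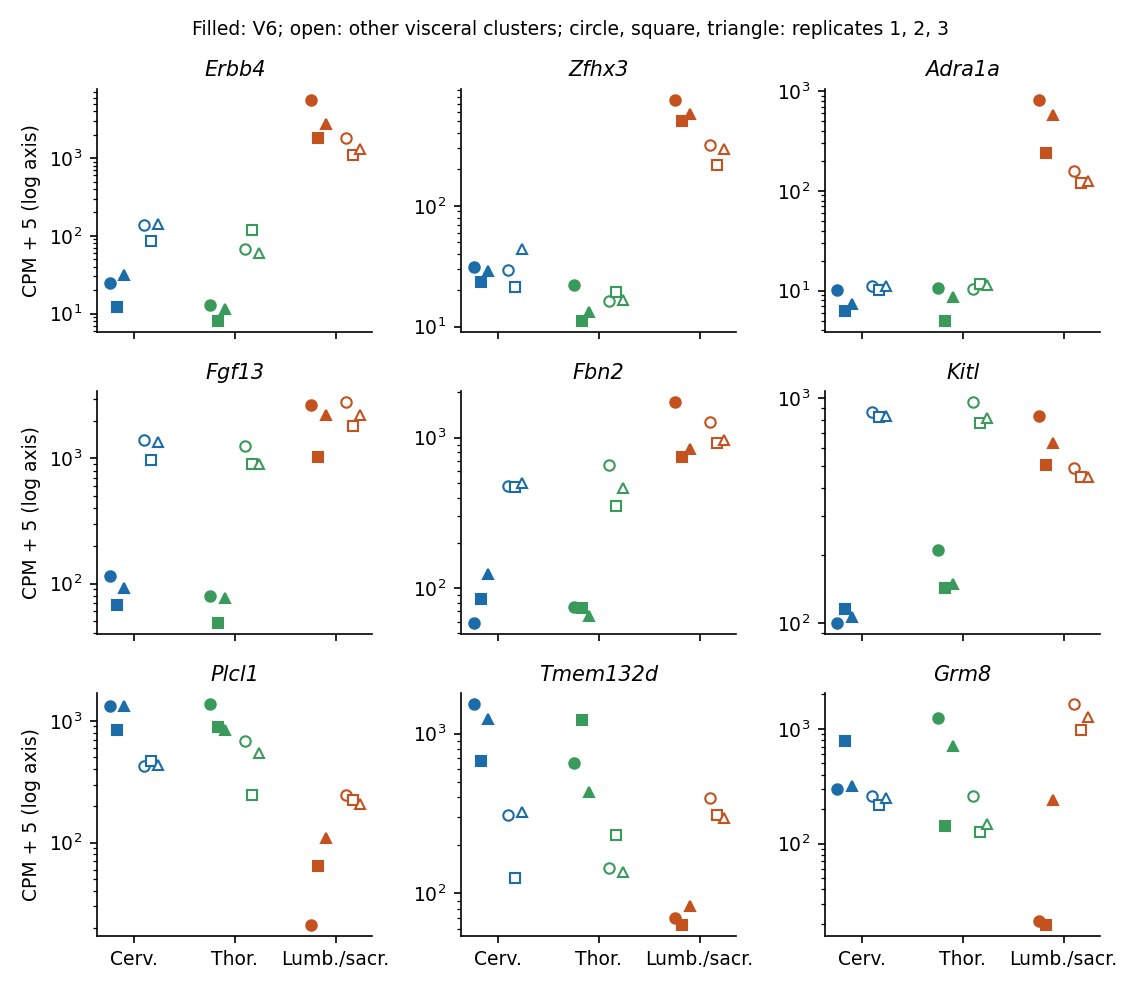
CPM + 5 on a log axis for 9 genes in V6 (filled) and in the pooled other visceral clusters (open) of each library, by region, with circles, squares and triangles for replicates 1, 2 and 3. The lumbar/sacral triangle of V6 holds 7 nuclei and was not part of the tests, and *Erbb4*, *Zfhx3*, *Adra1a*, *Fgf13*, *Fbn2* and *Kitl* are higher, and *Plcl1* and *Tmem132d* lower, in lumbar/sacral than in rostral V6.

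Of the genes that define V6 here, *Pcsk2* was lower in lumbar/sacral V6 by 1.03 (standard error 0.26), with a limma adjusted p of 0.063 that missed the threshold. *Tox* differed by -0.19 (standard error 0.38, limma adjusted p = 0.89). *Hmcn1* was called higher there (1.16, standard error 0.27, limma adjusted p = 0.043). Of 4 genes of cholinergic transmission and 8 of prohormone processing that were tested none was called. Of 5 visceral markers tested *Fbn2* was called higher and *Nos1* lower (-1.22, standard error 0.26), *Nos1* being at 388 to 501 CPM in rostral and 129.6, 249 and 364 CPM in lumbar/sacral V6. *Htr2c* was called lower (-1.94, standard error 0.33). Of 18 glutamate receptor subunits 2 were called higher and 2 lower, and of 19 potassium channels 3 higher and 1 lower, beside 2.05% and 1.7% of all 3700 genes.

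Whether these differences were those of the visceral class as a whole was tested within libraries, on V6 minus the pooled other visceral clusters. Of 3700 genes 9.08% (336) were called by limma, 4.16% (154) with a higher and 4.92% (182) with a lower V6 difference in lumbar/sacral tissue, and 895 had an unadjusted p under 0.05. With the pool of mice as a replicate block limma called 189. Without replicates 1, 2 and 3 in turn it called 88, 667 and 159. It uses the same V6 sums as the comparison within V6, so the tests are not independent of each other. V8 made up 26.4% to 34.1% of the other visceral nuclei in lumbar/sacral libraries and at most 0.330% in the others, and without V8 the count was 308.

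*Kitl*, the ligand of the receptor KIT, was at 95.4 to 205 CPM in rostral V6 against 773 to 956 CPM in the others, and at 826, 499 and 625 against 485, 439 and 440.3 CPM in lumbar/sacral tissue. It was thus far below the other clusters in the rostral cord and above them in the caudal one, a change of 2.99 (standard error 0.31, limma adjusted p = 0.00015). *Grm8*, a metabotropic glutamate receptor, went the other way, with 138 to 1237 CPM in rostral V6 and 16.2, 14.7 and 234 CPM in lumbar/sacral V6, against 120.4 to 255 and 1636, 981 and 1269 CPM in the others (-6.34, standard error 0.61, limma adjusted p = 9.9e-05). V8, which is nearly confined to lumbar/sacral tissue, held 3494 ± 559.6 CPM of it there, and without V8 among the other clusters the change was -4.22 (limma adjusted p = 0.0013). The *Grm8* values of V6 in lumbar/sacral replicates 1 and 2 lie below the level of 3 counts there, 48.6 and 44.0 CPM. The fitted changes of *Grm8* therefore depend on the pseudocount, and the 7 nuclei outside the fit (234 CPM) lay within the rostral range. Of the 8 genes that passed higher in V6, 7 were tested and 1 was called, *Hmcn1* (1.96, standard error 0.32), whose V6 difference was larger in lumbar/sacral tissue. The change for *Pcsk2* was -0.92 (standard error 0.47, limma adjusted p = 0.26). Of 8 prohormone processing genes tested 2 were called, both with a higher V6 difference in lumbar/sacral tissue: *Cpe* (1.47, standard error 0.28) and *Pam* (1.35, standard error 0.36). Of 4 granins and dense-core vesicle proteins 2 were called higher, the vesicle priming factor *Cadps* (0.57, standard error 0.14) and the synaptotagmin *Syt4* (1.31, standard error 0.35), beside 4.16% of all genes.

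The lumbar/sacral V6 nuclei were not of a single kind. The number of genes with a count was taken per nucleus over *Erbb4*, *Zfhx3*, *Fgf13*, *Adra1a* and *Rxfp1*, chosen after their values were seen, so the numbers below are a description. Of the 30 lumbar/sacral V6 nuclei 20 had a count of all 5, 2 had 4, none had 2 or 3, and 8 had 0 or 1. In the cervical and thoracic libraries 1 of 552 V6 nuclei had 4 or more, and 497 had 0 or 1. By library, 13 of 13, 4 of 10 and 5 of 7 lumbar/sacral V6 nuclei had 4 or 5, so the mixture varied between replicates and replicate 2, a library of 10 V6 nuclei, held most of the nuclei with 0 or 1.

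**Figure D5:**
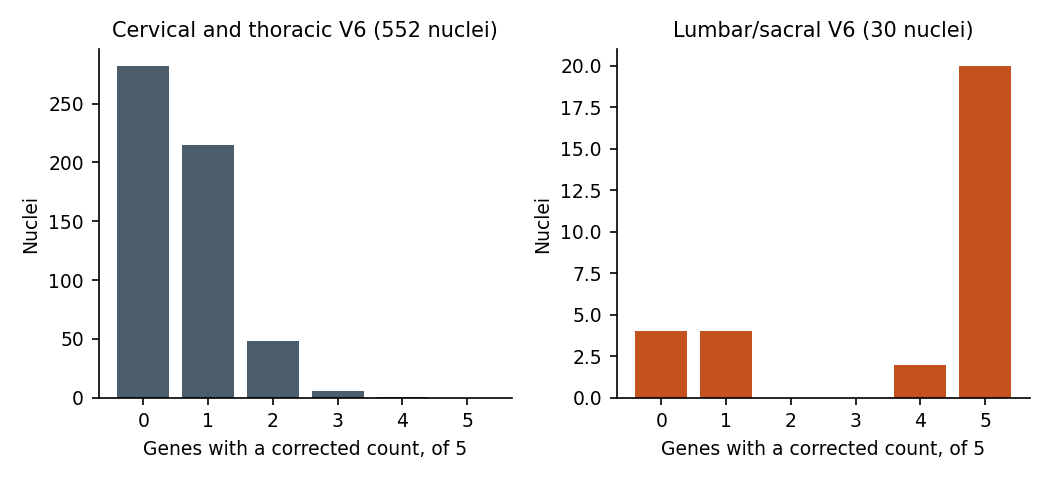
Number of V6 nuclei by how many of 5 genes (*Erbb4*, *Zfhx3*, *Fgf13*, *Adra1a*, *Rxfp1*) had a corrected count, for cervical and thoracic libraries (left) and lumbar/sacral libraries (right), with separate vertical axes from 0. Rostral nuclei pile up at 0 and 1, and lumbar/sacral nuclei lie at 0 to 1 (8 nuclei) or 4 to 5 (22 nuclei).

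The 22 nuclei with the genes and the 8 without them were set beside the rostral V6 nuclei pooled. Genes that passed in V6 did so in the lumbar/sacral libraries too, so their presence here follows from that rule. *Pcsk2* was at 170 CPM (a count in 11 of 22 nuclei) in the first and 159 CPM (4 of 8) in the second, against 373 CPM in the rostral nuclei pooled. *Tox* was at 331 and 218 CPM and *Hmcn1* at 1188 and 1110.1 CPM. *Kirrel3* differed, at 3742 CPM in the 22 and 436 CPM in the 8, and *Ptprt* was at 1120 and 357 CPM against 1443 CPM in the rostral nuclei. *Fbn2* was at 1561 CPM in the 22 and 79.3 CPM in the 8, the latter near the 69.8 CPM of rostral V6 nuclei but resting on a count in 3 of 8 nuclei. *Plcl1* was low in both (33.9 and 99.1 CPM against 1122 CPM), and so was *Tmem132d* (59.4 and 79.3 CPM against 888 CPM). *Dach1*, a transcription factor gene, was at 8.48 and 297 CPM against 1153 CPM, and *Arpp21* at 0 and 198 CPM against 835 CPM. *Epha6*, an ephrin receptor gene, was at 1485 and 1130 CPM against 133 CPM. Both sets of caudal nuclei thus lay far from the rostral V6 nuclei in *Plcl1*, *Tmem132d* and *Epha6*. The 8 nuclei were near rostral V6 in *Fbn2*, on few counts, and stood between the 22 and rostral V6 in *Dach1* and *Arpp21*. *Dach1* had a count in 5 of the 8 and in 1 of the 22. *Dach1* and *Epha6* were chosen after their values were seen.

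Pooled over the 30 nuclei, lumbar/sacral V6 was most like lumbar/sacral V2 (Pearson r = 0.894 over 3374 genes) and V3 (0.893), and less like rostral V6 (0.779). Rostral V6 ranked 15 of 17 cluster and region pools, behind rostral V3 (0.831), V10 (0.829), V9 (0.822), V5, V4, V2 and V1, so these nuclei were more like most other rostral clusters than like the rostral cluster of their name. Lumbar/sacral V2 and V3 also held *Erbb4*, at 3614 ± 732 and 1394 ± 484 CPM (n = 3). They did not hold V6 levels of *Tox*, which was at 51.3 ± 6.79 CPM in lumbar/sacral V2 and 62.8 ± 27.2 CPM in V3 beside 308, 249 and 364 CPM in V6. The authors assigned clusters after joining the regions, each of which they had normalized apart, and the part of that step in these differences was not tested. Depth was lower in the caudal nuclei (a median total of 5106 corrected counts in lumbar/sacral and 8700 in rostral V6), and its part was not tested.

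Between cervical and thoracic V6, limma called 0 of 9895 genes, and 54 had an unadjusted p under 0.05. Without replicate 2, limma called 24, of which 21 were lower and 3 higher in thoracic tissue. *Hs6st3*, a heparan sulfate sulfotransferase, was at 849.6, 101 and 1317 CPM in cervical and 66.6, 1045 and 121 CPM in thoracic replicates 1 to 3, and *Meis2*, a homeobox factor, at 56.6, 251 and 59.2 CPM in cervical and 292, 56.3 and 213 CPM in thoracic replicates 1 to 3. In both, replicates 1 and 3 of a region were alike and replicate 2 lay at the level of the other region. For all 24 genes the library labelled cervical replicate 2 lay nearer to thoracic replicates 1 and 3, and for 21 of them the library labelled thoracic replicate 2 lay nearer to cervical replicates 1 and 3. The samples' labels were not tested further, and *Pcsk2* (-0.14, standard error 0.24) and the 8 genes that passed higher in V6 were not called.

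Between the male and the female pool, with region as a term and 5 V6 sums, limma called 0 of 9225 genes, and 343 had an unadjusted p under 0.05. The male sums are those of replicate 2, whose cervical and thoracic libraries resembled the other region, and these values rest on the labels as given. The pools are 1 group of 4 mice per sex, so sex and pool cannot be told apart. *Pcsk2* was higher in the male pool by 0.36 (standard error 0.25, limma adjusted p = 0.93), and *Nos1* (-0.08), *Tox* (-0.21) and *Htr2c* (-0.44) were lower without passing the threshold.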

How the data were processed

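Nuclei were sorted for GFP and DRAQ5 and sequenced with 10x Chromium 3' chemistry. Per the labels the authors used Cell Ranger 3.1.0 and Seurat with the mm10 build, and their methods name a pre-mRNA reference, removal of outlying nuclei, SCTransform on each barcoded region apart, and clustering after the regions were joined. The authors deposited a matrix of 21457 genes by 16042 cholinergic nuclei, and a table of the cluster and class of each nucleus. The values the authors deposited are corrected counts, a score made by the SCTransform model in whole numbers, and not raw counts. Per library the totals of the nuclei had an SD of 5.85% to 10.7% of their mean. The original depth of a nucleus is therefore unknown, and count models were not used. The clusters V1 to V10, the members of V6, the gene lists and the tests were chosen with earlier results of these data known.

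For each library and cluster with at least 10 nuclei the corrected counts were added up and scaled to 1000000 (CPM). V6 minus the other visceral clusters was described within libraries on log2(CPM + 5). Tests between sums were made in limma (version 3.58.1, R 4.3.3), with a mean-variance trend and adjustment after Benjamini and Hochberg over all genes tested, called at 0.05. Cervical against thoracic and male against female used genes of at least 10 CPM in at least 3 sums and a pseudocount of 5. On simulated data with the lumbar/sacral layout that fit called many unchanged genes, so both lumbar/sacral comparisons were refitted, after the data were seen, with precision weights from the depth of each sum (dispersion 0.05), a minimum mean over regions of 50 CPM and a pseudocount of 20. The original fit is an alternative. Shares were tested by exact permutation in SciPy 1.17.1. Summed levels compare nuclei by library: fewer counts per nucleus and fewer expressing nuclei cannot be told apart in them.

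Replicate numbers mark the pool of mice in the labels, so same-numbered libraries of the 3 regions share animals, and a fit with the replicate block was run. Thinning drew 4600 corrected counts per nucleus (seed 1). Gene positions came from GENCODE on GRCm38. Named genes were the marker and the members of 5 lists, the 15 genes furthest each way among those that passed, leaving out gene models named Gm or ending in Rik, up to 10 called genes each way per test, the 2 furthest members of each other list at 50 CPM or more and the 5 genes most like *Pcsk2* at 100 CPM or more. *Hoxa7*, *Hs6st3* and *Meis2*, which show the libraries that stood apart, were chosen after their values were seen. Some genes of the lists are not reported here and were left out of the counts and sums by list. Alternatives are given in the closing section.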

Additional observations from a re-analysis of the deposited data

Results flagged for a closer look

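The difference between V6 and the other visceral clusters of the same library depended on region. Tested within libraries with limma, it changed between lumbar/sacral and rostral tissue for 336 of 3700 genes. The changes below are log2 differences of differences on the log2(CPM + 20) scale, positive where V6 stood higher relative to the other visceral clusters in lumbar/sacral than in rostral tissue, and the lumbar/sacral side rests on 2 sums of 13 and 10 nuclei.

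The 10 genes with the lowest p among the positive changes were *Kcnab1* (1.68), *Zfpm2* (2.59), *Alk* (1.503), *Erbb4* (3.04), *Cadm2* (1.98), *Kitl* (2.99), *Inpp4b* (4.03), *B3galt1* (2.21), *Galntl6* (1.51) and *Lsamp* (2.66). They include a potassium channel subunit (*Kcnab1*), receptor tyrosine kinases (*Alk*, *Erbb4*) and adhesion molecules of the immunoglobulin superfamily (*Cadm2*, *Lsamp*). The 10 with the lowest p among the negative changes were *Tmem132d* (-4.22), *Nell1* (-3.38), *Unc5c* (-1.63), *Pld5* (-2.62), *Fstl5* (-1.76), *Grm8* (-6.34), *Rgs6* (-1.75), *Plcl1* (-3.44), *Pde10a* (-1.53) and *Prkar2a* (-2.54). They include a netrin receptor (*Unc5c*), a regulator of G protein signalling (*Rgs6*) and a phosphodiesterase (*Pde10a*). *Prkar2a* was listed at 0 in both lumbar/sacral V6 sums, so its fitted value depends on the pseudocount and is no bound. *Grm8* was below the level of 3 counts in both sums, so its fitted value depends on the pseudocount too. The cause of these changes was not tested.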

How the results depend on the processing

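The lower share of V6 in lumbar/sacral tissue kept its sign under every alternative. It missed the adjusted threshold as a share of all cholinergic nuclei (-5.19 points), with the replicate block (-10.6 points, where 27 arrangements allow no smaller p) and without 1 replicate each (-11.7 to -9.61 points, where the exact test cannot go below 0.0667). Genes called between lumbar/sacral and rostral V6 numbered 139, and 77 with no filter, 91 with at least 10 corrected counts in every sum, 7 to 288 without 1 replicate each, and, in alternatives chosen after seeing the data, 223 with sums of at least 5 nuclei and 880 with equal weights and the minimum of the original design. For V6 minus the other clusters the count was 336, and 95 with no filter, 208 with the count minimum, 216 with a pseudocount of 1, 189 with the replicate block, 88 to 667 without 1 replicate each and 1560 with equal weights. The equal-weight fit called many unchanged genes on simulated data, and other causes were not tested. The replicate block changed no other call. Between cervical and thoracic V6, 0 to 24 genes were called without 1 replicate each, 24 of them without replicate 2. Between the pools 0 became 2 with median-of-ratios scaling, 6 with no filter, 3 with a pseudocount of 20 and 1 with at least 5 nuclei. Of the 73 genes that passed in V6 against the other clusters, the count became 10 with the count minimum, 35 with a pseudocount of 20, 240 with at least 20 nuclei or in rostral libraries only (the minimum level being applied again in those libraries), 41 with clusters weighted equally, and 83 to 134 without 1 replicate each. No result reversed. Among named genes in the lumbar/sacral tests, 14 and 4 values lost their call, 13 and 1 of them without replicate 1. A minimum of 20 nuclei left no lumbar/sacral sum, and no replicate block could be had for sex, since each pool is 1 sex. With 7 to 13 nuclei, lumbar/sacral V6 could not show genes below 44.0 to 78.1 CPM.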
